A study of Homo sapiens and Mus musculus with 12 samples.

Results

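The untreated state of both cell systems of the study was described here from the 6 control libraries among 12 libraries in all: 3 RNA-seq libraries of mouse splenic NK cells and 3 of the human line NK92MI. The study asked what EHMT2, a histone H3 lysine 9 methyltransferase also known as G9a, does in natural killer (NK) cells, by deleting it in mice and by inhibiting it with BIX-01294 in NK92MI cells. The mouse controls, called WT, were CD3-NK1.1+ cells sorted from the spleens of Ehmt2 flox/flox mice without Cre, on the C57BL/6J background and 8 to 12 weeks old. They carried both floxed alleles without the recombinase. The human controls were NK92MI cells that received DMSO, the solvent, and are called DMSO. NK92MI is 1 line, derived from an NK lymphoma, that carries an IL-2 transgene and so makes its own growth factor in culture. No label or method stated whether the libraries of a group came from separate animals, pools of animals or cultures, so each p-value measures only the spread between these libraries. Species, organ or culture, sorting and library preparation all differed between the groups and cannot be told apart.

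Members were paired by the upper-cased gene symbol, which is how genes are written throughout, and 11216 symbols were listed in both tables. A shared symbol does not show that a pair is a 1:1 ortholog. Of 476 genes on lists of NK identity, receptor, effector and metabolic genes, 417 were paired. Read counts were converted to CPM, that is, scaled to a common library total. Each gene was then given its percentile among the 11216 pairs within its own library, so that 100 is the most abundant transcript. A difference in percentile points is therefore a difference in rank, not a fold change across species. A gene was called higher in a group when its mean percentile differed by at least 10 points with an adjusted p under 0.05 in limma over the 9699 pairs with a mean CPM of at least 1. All adjusted p-values below are from that limma fit with Benjamini-Hochberg adjustment, with n = 3 libraries per group, and for 1 gene alone an exact permutation test of 3 against 3 could not go below p = 0.1. Genes near the top of the scale have little room to differ, so points understate differences there.

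NK cells are innate lymphocytes that kill infected and transformed cells by releasing perforin and granzymes and that secrete interferon gamma and chemokines. Their activity is set by the balance of activating receptors, many of which signal through the adaptors TYROBP (DAP12), FCER1G and HCST (DAP10), and inhibitory receptors that bind MHC class I, and their survival depends on IL-15 and IL-2 signalling through IL2RB and IL2RG. The transcription factors TBX21 (T-bet), EOMES, ID2 and NFIL3 direct their development. Resting NK cells have low metabolic activity, while cytokine-stimulated or transformed cells raise glycolysis, nucleotide synthesis and lipid synthesis.

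Both systems placed perforin, granzyme A and the factors ID2, TBX21 and EOMES near the top, while many surface receptors ranked higher in WT and most nucleotide synthesis genes ranked higher in DMSO. Over all pairs tested, 30.4% ranked higher in WT and 32.9% ranked higher in DMSO, 63.3% in either direction. Against that background, receptor genes ranked higher in WT in 62 of 114 tested and higher in DMSO in 17, and identity genes in 34 and 11 of 71. Effector genes were split, with 11 and 12 of 41, and metabolic genes had 57 higher in WT and 79 higher in DMSO of 215. The Spearman correlation between a WT and a DMSO library lay between 0.527 and 0.551 over all pairs tested, against 0.984 to 0.993 within WT and 0.997 to 0.998 within DMSO. Over the 41 effector genes it was 0.640 to 0.674, over the 71 identity genes 0.132 to 0.184, over the 114 receptor genes 0.295 to 0.322 and over the 215 metabolic genes 0.360 to 0.392. These correlations run across genes, which share libraries and are not independent replicates, and are given as a description. The call balance depended on the ranking universe: WT took 48.0% of all calls with ranks over the pairs and 63.8% when each library was ranked over every gene listed in its own table. The mouse table listed 5556 rows with 0 counts in all 6 of its libraries, and the human table listed 0 such rows. Rows at 0 take the lowest ranks of their own table and so raise the percentiles of its other genes. The part of this offset in any balance that turned was not tested. Genes with 0 counts in all 6 human libraries were not listed and so could not be paired.

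**Figure D1:**
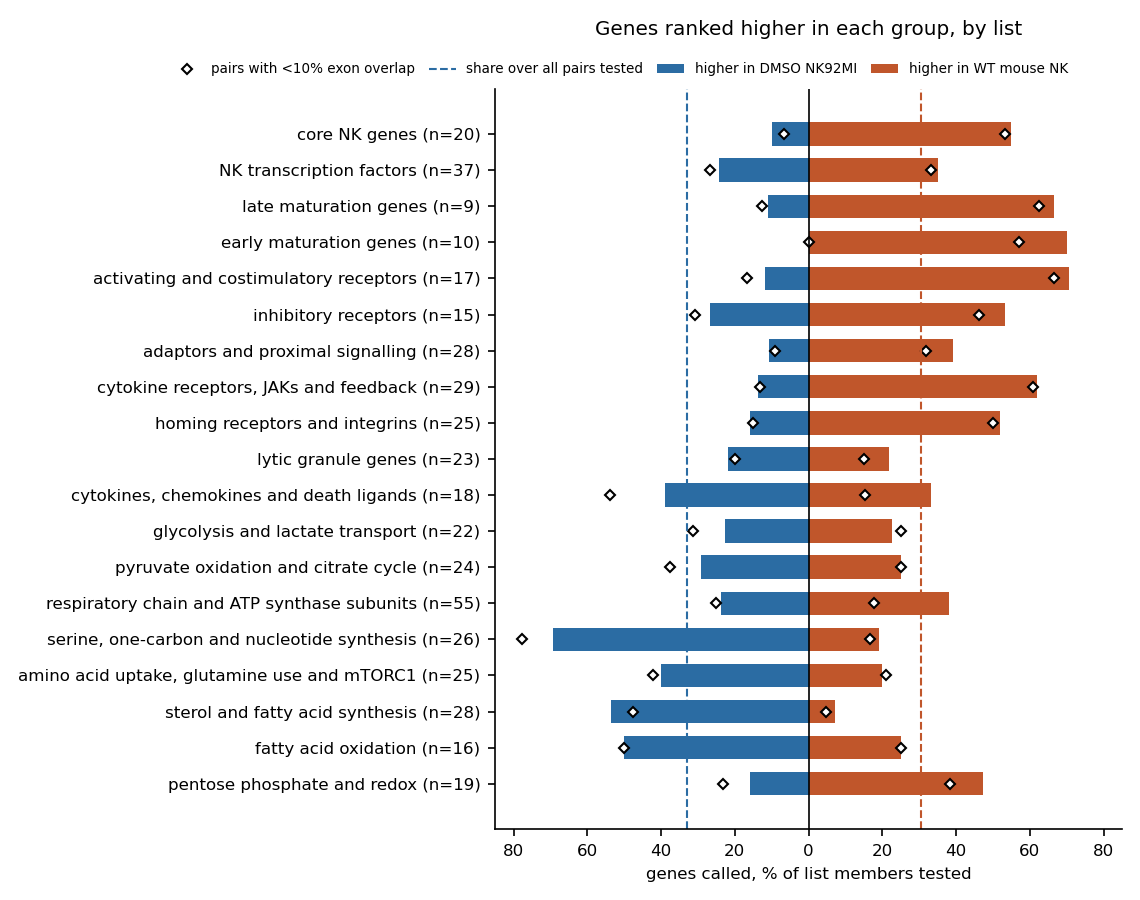
Share of tested list members called higher in WT (right) or in DMSO (left), in percent, for 19 lists. Dashed lines mark the shares over all pairs tested (30.4% and 32.9%), and open diamonds repeat each share over pairs whose exons overlap another gene by less than 10%. Receptor and maturation lists extend to the right, while the lists of nucleotide, sterol and fatty acid genes extend to the left.

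Depth and purity set the limits of these ranks. Library totals ran from 25891680 to 37236209 counts in WT and from 16808809 to 17165446 in DMSO, and 3 counts in a library, the limit that a count of 0 allows, came to between 0.0806 and 0.178 CPM, for counting error only. The median SD of a gene's percentile was 1.505 points in WT and 1.0006 in DMSO. In the WT libraries, markers of other spleen cells were present: 12 macrophage and monocyte markers summed to 5784, 1690 and 3758 CPM, 10 B cell markers to 876, 558 and 1550 CPM, and 10 neutrophil markers to 511, 226 and 1613 CPM, with no marker at 0 in all 3 libraries. WT replicate 2 held the lowest sum of each of these 3 lists, but not of the 7 platelet markers, at 1782, 2080 and 2837 CPM. In bulk RNA, fewer cells of a type and less RNA per cell cannot be told apart. The part of these other cells in the WT value of any gene below was not tested. In DMSO the markers of these 3 lists that were listed summed to at most 20.3 CPM in any library. The 5 T cell markers listed in the human table summed to 665 to 686 CPM, led by CD3E at a mean of 495 CPM, against 145 to 233 CPM for 9 in WT, where Cd4 led.

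Exon overlap with a neighbouring gene moved with the calls. HTSeq, the counting tool used by the authors, discards reads that fall on more than 1 gene in its usual setting, and whether strand was used was not given in the sources used here. Among 4521 pairs with no overlap in the human annotation, 27.4% ranked higher in WT and 36.2% in DMSO. Among 225 pairs whose human exons overlapped another gene over more than 50% of their bases, these shares were 68.0% and 8.0%. In the mouse annotation, by contrast, the 155 pairs above 50% overlap had 23.2% higher in WT and 47.7% higher in DMSO. The part of overlap in any call was not tested, so human overlap of 10% or more is given beside the genes below. The H3K9 methyltransferase genes are the exception, for which only a count is given. Overlap was measured in GENCODE releases that the tables' symbols match closely but that are not shown to be the authors' own. With pairs of at least 10% overlap in either species left out, receptor genes still had 45 higher in WT and 14 in DMSO of 90, identity genes 25 and 9 of 56, effector genes 5 and 11 of 33 and metabolic genes 29 and 59 of 143, beside 27.2% and 35.6% (62.8% in either direction) over all 6875 such pairs. List counts below are to be read beside 30.4% in WT and 32.9% in DMSO over all pairs tested. Counts of list members with under 10% overlap are to be read beside 27.2% and 35.6%. Mouse overlap of 10% or more, among the genes described below other than the H3K9 methyltransferase genes, was 68.7% for ITGAM, 39% for NDUFB6, 34.4% for CTSD, 30.5% for IL2RG, 26.7% for FDPS, 26.6% for SH2D1A and 25.9% for IFNG, and lay between 10% and 20% for CD7, CISH, XCL1, PKM, TXNIP, PRDX2 and SCAP.

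**Figure D2:**
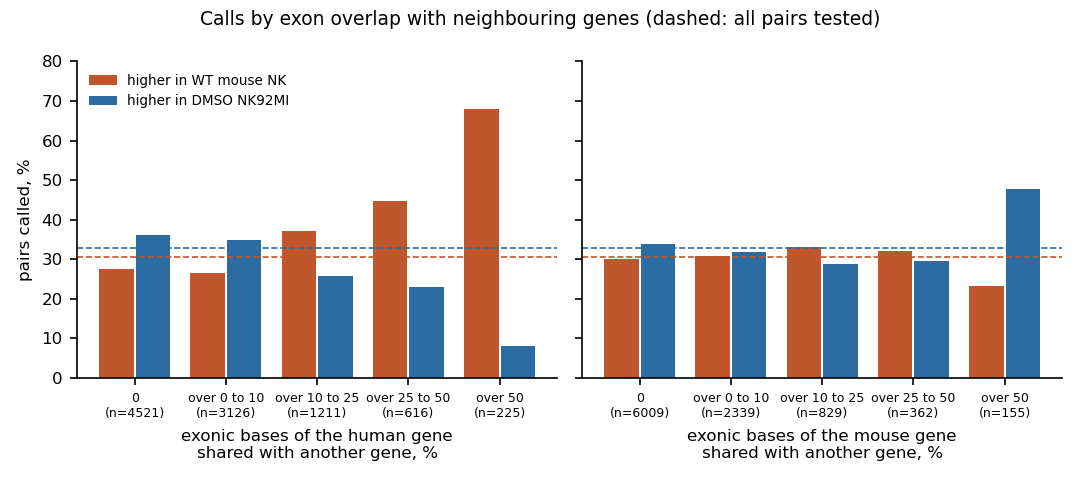
Percentage of pairs called higher in WT or in DMSO (vertical axis) by the share of the gene's exonic bases that overlap another gene (horizontal axis), in the human (left) and mouse (right) annotation. In the human annotation the share higher in WT rises from 27.4% without overlap to 68.0% above 50% overlap, while the share higher in DMSO falls from 36.2% to 8.0%. In the mouse annotation the bin above 50% goes the other way, with 23.2% and 47.7%.

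EHMT2, the enzyme that the study deleted or inhibited, ranked higher in the mouse cells than in the human line. Its values were 274, 283 and 285 CPM in WT and 57.6, 61.3 and 54.6 CPM in DMSO. The 2 groups did not overlap, and its percentiles, 95.01, 94.9 and 95.1 in WT and 64.3, 65.9 and 62.999 in DMSO, differed by 30.6 points (SE 0.869, adjusted p = 2.91e-08). In the files' builds EHMT2 lies at chr17:34898469-34914052 (plus strand) in mouse GRCm38 and at chr6:31879759-31897698 (minus strand) in human GRCh38. EHMT1 (GLP), its partner in the enzyme complex, was measured at 61.99, 66.2 and 59.1 CPM in WT and 85.8, 83.02 and 79.6 CPM in DMSO and did not pass the test, with 2.21 points toward DMSO (adjusted p = 0.0962) that turned to 13.98 points toward WT when counts were ranked per kilobase of exon. Of the other H3K9 methyltransferase genes on the list, SUV39H2, which trimethylates lysine 9, ranked higher in DMSO (1.45, 1.54 and 0.913 against 46.8, 40.1 and 42.6 CPM, 38.9 points, SE 1.31, adjusted p = 6.52e-08), and SETDB1 and SUV39H1 were not called. These 3 genes and WIZ, whose product joins EHMT1 and EHMT2, lay outside the rule for named genes and were chosen after their values were seen, and WIZ was not called either.

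3 genes show how far the paired sequences themselves diverge between the species and are printed because they include high and low sequence identity: 2 with high ranks in both systems (GZMA and ID2) and an inhibitory receptor abundant in both (KLRC1). The first 60 coding bases are given for each from GENCODE transcripts, mouse release M21 and human release 44, with capitals at the bases that differ between the species.
GZMA mouse: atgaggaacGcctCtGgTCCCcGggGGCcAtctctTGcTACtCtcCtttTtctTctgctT
GZMA human: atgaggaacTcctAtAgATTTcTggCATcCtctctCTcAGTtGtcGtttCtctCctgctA
ID2 mouse: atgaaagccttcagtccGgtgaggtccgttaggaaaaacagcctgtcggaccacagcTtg
ID2 human: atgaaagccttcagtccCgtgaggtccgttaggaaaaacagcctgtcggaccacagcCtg
KLRC1 mouse: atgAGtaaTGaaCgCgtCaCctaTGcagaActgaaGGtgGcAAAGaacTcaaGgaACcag
KLRC1 human: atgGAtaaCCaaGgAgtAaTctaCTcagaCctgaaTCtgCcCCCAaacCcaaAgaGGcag
In these windows 22 bases differ in GZMA and in KLRC1 and 2 differ in ID2. Over the whole aligned coding sequence the identity was 76.9% for GZMA, 95.0% for ID2 and 65.3% for KLRC1. Of 416 list pairs with a coding sequence in both species, 410 aligned over at least 80% of the longer sequence, and the others were left out. Across these 410 the median identity was 85.1%, with 71.6% for activating receptors, 72.3% for inhibitory receptors and 88.6% for the NK transcription factors. GZMA lies at chr13:113093825-113100981 in mouse GRCm38 and chr5:55102646-55110252 in human GRCh38, ID2 at chr12:25093799-25097140 and chr2:8678845-8684461, and KLRC1 at chr6:129666015-129678973 and chr12:10442264-10454685.

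Of the 20 core NK genes tested, 11 ranked higher in WT and 2 in DMSO, with a median difference of 16.9 points toward WT beside 1.15 points toward DMSO over all pairs tested. The 2 higher in DMSO were NCAM1 and SH2D1A. NCAM1 (CD56), the adhesion molecule that defines human NK cells and that mouse NK cells lack, was measured at 0.108, 0.154 and 0.242 CPM in WT and 343, 345 and 343 CPM in DMSO. All 3 WT libraries were near the counting limit and the 3 DMSO libraries lay within 343 to 345 CPM, and the ranks, 10.2, 11.7 and 12.8 in WT and 95.9, 95.8 and 95.8 in DMSO, differed by 84.3 points (SE 1.09, adjusted p = 3.33e-09). SH2D1A (SAP), the adaptor of the SLAM receptors, had 22.5, 31.6 and 21.9 CPM in WT and 704, 684 and 757 CPM in DMSO, and its difference was 50.9 points (SE 2.36, adjusted p = 3.35e-07).

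The signalling adaptors gave the opposite pattern. TYROBP, which carries the signal of several activating receptors, had 851, 865 and 738 CPM in WT and 0.411, 0.233 and 0.297 CPM in DMSO. The DMSO values were just above the limit of 3 counts, and the ranks differed by 86.3 points (SE 1.16, adjusted p = 3.72e-09). FCER1G, the adaptor of CD16 and the NKp46 receptor, had 949, 944 and 830.1 CPM in WT and 0.411, 1.05 and 0.952 CPM in DMSO. The difference was 80.9 points (SE 1.75, adjusted p = 9.84e-09). Both genes are also transcribed in myeloid cells, whose markers were present in WT, and the part of these cells in both differences was not tested. Such cells bear on the WT values only. Whether the counting of reads lowered the DMSO values of TYROBP and FCER1G was not tested either.

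Receptor genes that mark NK cells in both species followed. NCR1 (NKp46) was measured at 332, 540.1 and 333 CPM in WT and 28.9, 29.9 and 24.9 CPM in DMSO, and its percentiles were 96.2, 98.1 and 96.1 in WT and 48.5, 49.2 and 45.8 in DMSO. KLRD1 (CD94), the partner of the NKG2 receptors, had 221, 359 and 222 CPM in WT and 20.4, 20.04 and 17.6 CPM in DMSO. The difference was 52.6 points (SE 1.29, adjusted p = 1.58e-08). KLRK1 (NKG2D), which binds stress ligands, had 418, 695 and 433 CPM in WT and 3.99, 2.91 and 2.97 CPM in DMSO. Its human exons overlapped a neighbour over 62.4% of their bases, and the part of this overlap in its 70.6 points was not tested. NCR1 and KLRD1 had no human overlap and differed by 48.96 and 52.6 points, which does not bear on the value of KLRK1. CD7, an Ig-family surface protein, stood at 636, 723 and 530.0 CPM in WT and 71.8, 87.6 and 80.02 CPM in DMSO (26.1 points, SE 1.17, adjusted p = 2.78e-07), and CD226 (DNAM-1), an activating receptor for nectin-like ligands, at 38.4, 41.5 and 40.4 and 1.82, 0.699 and 1.73 CPM (37.8 points, SE 1.74, adjusted p = 3.19e-07).

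Several identity genes lay near the top in both systems. GZMA, a granzyme, had 1160.3, 1831 and 1249 CPM in WT and 1698, 1745 and 1747 CPM in DMSO, at percentiles 99.5, 99.8 and 99.6 in WT and 99.8, 99.8 and 99.8 in DMSO, and its 0.205-point difference did not pass the test (adjusted p = 0.301). PRF1 (perforin) was at 559.7, 899 and 625 CPM in WT and 553, 590.0 and 533 CPM in DMSO. The difference was 0.382 points (SE 0.263, adjusted p = 0.201). IL2RB, the shared beta chain of the IL-2 and IL-15 receptors, was at 1246, 2317 and 1245 CPM in WT and 808, 839 and 769 CPM in DMSO, at percentiles 99.5, 99.9 and 99.5 in WT and 99.2, 99.3 and 99.2 in DMSO. NKG7, a granule membrane protein, was at 506, 809 and 477 CPM in WT and 1088, 1226 and 1144 CPM in DMSO and ranked 1.36 points toward DMSO (adjusted p = 0.00335), which passed the p threshold but not the minimum of 10 points. These 4 genes lay at percentile 97.8 or above in all 6 libraries. IL2RB was called higher in WT by edgeR and DESeq2.

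The libraries of WT were not alike in this list. Of the 20 core NK genes, 18 were highest in WT replicate 2, beside 38.2% of all pairs, and this was the library with the lowest total and the lowest macrophage, B cell and neutrophil marker sums, though not the lowest platelet sum. For NCR1 the spread was 332, 540 and 333 CPM, and for IL2RB 1246, 2317 and 1245 CPM. The part of these other cells in that order was not tested. Leaving out WT replicate 2 ended the call of no named gene.

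**Figure D3:**
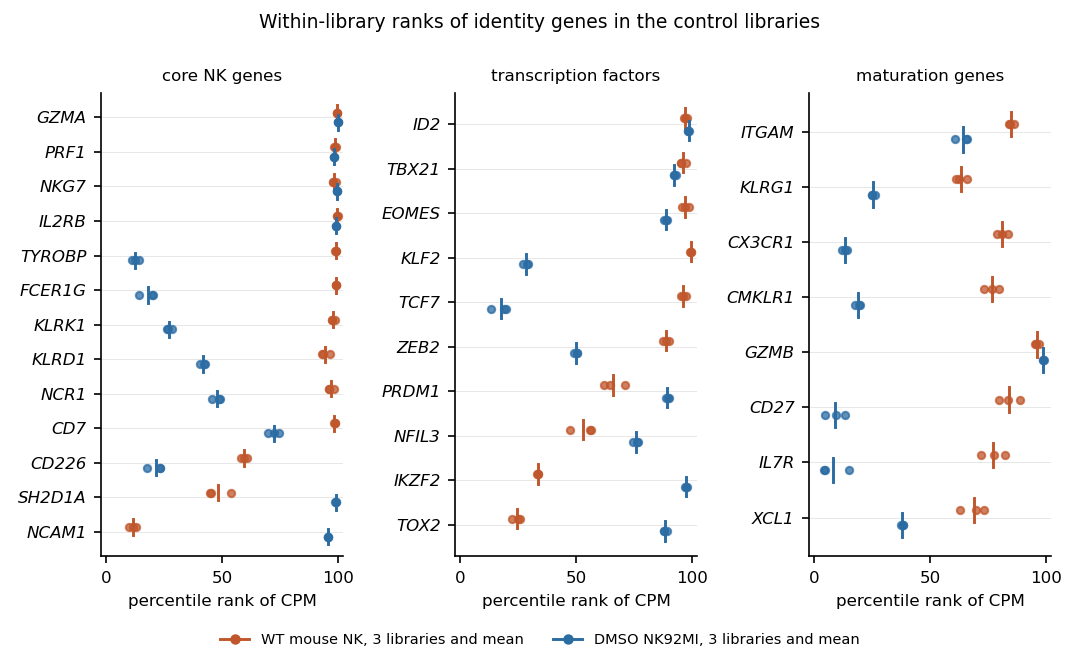
Percentile rank of CPM in each library (points, with the group mean as a bar) for core NK genes, transcription factors and maturation genes, WT mouse NK cells in orange and DMSO NK92MI cells in blue, 3 libraries each. GZMA, PRF1, IL2RB, NKG7 and ID2 sit at the right edge in both groups, NCAM1, SH2D1A, TOX2 and IKZF2 are farther right in DMSO, and TYROBP, FCER1G, KLF2 and TCF7 are farther right in WT.

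Among 37 NK transcription factors, 13 ranked higher in WT and 9 higher in DMSO, and the median difference was 3.54 points toward WT. The shares were 35.1% and 24.3%, beside 30.4% and 32.9% over all pairs tested. ID2, TBX21 and EOMES ranked high in both. ID2, the inhibitor of E proteins, had 389, 485 and 351 CPM in WT and 571, 589.9 and 639 CPM in DMSO, a difference of 1.44 points toward DMSO. TBX21 was measured at 284, 441 and 292 CPM in WT and 228, 243 and 228 CPM in DMSO and differed by 3.498 points, and EOMES, at 307, 646 and 377 CPM in WT and 176, 179.8 and 167 CPM in DMSO, by 8.41 points toward WT. The adjusted p-values of these 3 were 0.00566, 0.000713 and 1.12e-05, so each was past the p threshold and none reached 10 points. EOMES was called higher in WT by edgeR and DESeq2.

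KLF2, TCF7 and ZEB2 ranked higher in WT. KLF2, which keeps lymphocytes quiescent, had 871, 1258 and 1024 CPM in WT and 4.64, 3.26 and 4.16 CPM in DMSO. The difference was 70.9 points (SE 1.07, adjusted p = 4.43e-09). TCF7 (TCF-1), a Wnt-pathway factor of early NK development, had 321, 450.0 and 302 CPM in WT and 0.88, 0.99 and 0.357 CPM in DMSO. The difference was 78.7 points (SE 1.82, adjusted p = 1.26e-08). ZEB2, needed for terminal maturation, was at 158, 138 and 148 CPM in WT and 29.9, 31.98 and 32.1 CPM in DMSO, and differed by 38.6 points (SE 1.06, adjusted p = 2.5e-08). In all 3 genes every WT library lay above every DMSO library, which the rule for named genes required of KLF2 and TCF7.

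The reverse held for TOX2, a factor of human NK development, at 5.44, 4.09 and 3.12 CPM in WT and 168, 183 and 168 CPM in DMSO. The difference was 64.01 points (SE 1.26, adjusted p = 7.51e-09). IKZF2 (Helios), an Ikaros family repressor, had 11.7, 10.7 and 10.8 CPM in WT and 488, 425 and 469.6 CPM in DMSO. The difference was 63.8 points (SE 0.954, adjusted p = 4.43e-09). PRDM1 (BLIMP-1), a repressor that promotes terminal differentiation, stood at 48.7, 61.8 and 44.8 CPM in WT and 190.2, 174 and 184 CPM in DMSO (23.4 points, SE 2.07, adjusted p = 1.44e-05). NFIL3, needed for the first step of NK commitment, stood at 24.8, 35.1 and 35.1 and 95.9, 94.03 and 86.8 CPM (22.7 points, SE 2.45, adjusted p = 4.81e-05). In all 4 the 2 groups of libraries did not overlap, which the rule for named genes required of TOX2 and IKZF2.

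Maturation genes of mouse NK cells were ranked higher in WT whether they belong to the early or the late stage. Of the 9 late genes tested 6 ranked higher in WT and 1 (PRDM1) in DMSO, with a median of 20.8 points, and of the 10 early genes 7 and 0, with a median of 57.3 points toward WT. ITGAM (CD11b), the integrin of mature cells, was at 111, 128 and 117 CPM in WT and 60.4, 61.8 and 49.9 CPM in DMSO. Its mouse exons overlapped another gene over 68.7% of their bases. KLRG1, an inhibitory receptor of terminal cells, was at 45.3, 50.3 and 43.05 CPM in WT and 2.76, 2.21 and 2.32 CPM in DMSO, and the ranks of both genes differed by 20.8 and 37.8 points.

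CX3CR1, the fractalkine receptor of mature cells, had 108, 95.9 and 87.6 CPM in WT and 0.293, 0.35 and 0.416 CPM in DMSO. The difference was 67.7 points (SE 1.42, adjusted p = 9.05e-09). CMKLR1, the chemerin receptor, was measured at 79.05, 90.3 and 69.3 CPM in WT and 0.704, 0.932 and 0.892 CPM in DMSO, a difference of 57.7 points. Both are also expressed by monocytes. The part of monocytes in both differences was not tested.

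On the early side, CD27, a TNF receptor family member, had 109, 151 and 91.9 CPM in WT and 0.352, 0.175 and 0.0595 CPM in DMSO, and its ranks differed by 74.9 points (SE 2.76, adjusted p = 9.87e-08). Its human exons overlapped a neighbour over 44.7%. IL7R, the IL-7 receptor of immature NK cells and other lymphoid cells, had 101, 82.1 and 65.3 CPM in WT and 0.0587, 0.466 and 0.0595 CPM in DMSO, with no exon overlap in either species and a difference of 69.01 points (SE 3.52, adjusted p = 5.59e-07). The DMSO values of IL7R were at or near the counting limit.

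Receptor genes leaned toward WT. Of 17 activating and costimulatory receptors tested, 12 ranked higher in WT and 2 in DMSO (median 30.4 points toward WT), and of 15 inhibitory receptors 8 and 4 (median 14.7 points toward WT, or 1.90 over the 13 with under 10% exon overlap). CD84, a SLAM family receptor, had 133, 163 and 166 CPM in WT and 0, 0 and 0.119 CPM in DMSO. The difference was 85.5 points (SE 1.83, adjusted p = 9.63e-09). The 2 activating receptors higher in DMSO were ICOS, a costimulatory receptor, at 18.7, 15.9 and 15.04 CPM in WT and 59.4, 57.8 and 59.7 CPM in DMSO (25.4 points, SE 1.17, adjusted p = 3.26e-07), and CD69, an early activation marker, at 13.8, 16.5 and 18.2 and 36.2, 37.1 and 37.004 CPM (14.5 points, SE 1.44, adjusted p = 2.93e-05). The CD69 call was lost in edgeR and DESeq2, with ranks over all listed genes (5.04 points) and with a minimum of 20 points.

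KLRC1 (NKG2A), the inhibitory receptor for HLA-E and its mouse counterpart Qa-1, was abundant in both, at 156, 189.6 and 109 CPM in WT and 355, 344 and 366 CPM in DMSO. Its ranks, 89.6, 91.5 and 83.3 in WT and 96.1, 95.8 and 96.3 in DMSO, did not overlap, but the difference of 7.88 points toward DMSO (adjusted p = 0.00447) was under the minimum. Its partner KLRD1 differed by 52.6 points the other way, so the pair that forms 1 receptor on the cell surface had unequal ranks in DMSO. Counts were also ranked per kilobase of all annotated exons of a gene, whether used in these cells or not. KLRC1 and KLRD1 then had mean percentiles of 95.2 and 98.4 in WT and 98.6 and 30.5 in DMSO. KLRD1 spans chr6:129591782-129598775 in mouse GRCm38 and chr12:10226058-10329608 in human GRCh38. The part of unused exons in its human rank was not tested. On that scale KLRC1 differed by 3.37 points toward DMSO and KLRD1 by 67.9 points toward WT.

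TIGIT and CD96, which compete with CD226 for its ligands, were compared with it on both scales. TIGIT had 11.5, 22.01 and 11.5 CPM in WT and 68.5, 75.2 and 70.7 CPM in DMSO, a difference of 32.01 points (SE 3.08, adjusted p = 2.43e-05) toward DMSO, which turned to 5.88 points toward WT on ranks per kilobase and so carries no firm direction. CD96 had 58.2, 96.6 and 60.2 CPM in WT and 583, 561 and 569.7 CPM in DMSO, a difference of 24.7 points (SE 2.84, adjusted p = 7.01e-05) toward DMSO that stayed on the same side per kilobase (10.6 points). CD226 ranked higher in WT on both scales, by 37.8 and 44.1 points.

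The remaining inhibitory receptors named by rule were LAIR1 and BTLA, higher in WT, and CD200R1, higher in DMSO. LAIR1, a collagen receptor, was at 115, 75.1 and 88.9 CPM in WT, in the order of the macrophage and monocyte marker sums. In DMSO it was at 1.29, 0.99 and 1.67 CPM, and its ranks differed by 58.3 points (SE 2.31, adjusted p = 1.43e-07). The part of macrophages and monocytes in this difference was not tested. BTLA, an Ig-family receptor for TNFRSF14 that is abundant on B cells, had 60.8, 36.3 and 88.1 CPM in WT, in the order of the B cell marker sums, and 0.235, 0 and 0 CPM in DMSO. The part of B cells in its 64.3 points was not tested. CD200R1, a receptor for CD200, was at 17.4, 13.1 and 10.98 CPM in WT and 68.9, 69.5 and 75.6 CPM in DMSO (33.01 points, SE 1.77, adjusted p = 7.44e-07).

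Among 28 adaptors and proximal signalling genes, 11 ranked higher in WT and 3 in DMSO (median 4.07 points toward WT). Besides SH2D1A, PLCG1, a phospholipase of receptor signalling, ranked higher in DMSO, at 36.1, 28.2 and 43.8 CPM in WT and 218, 221 and 209 CPM in DMSO. The difference was 35.1 points (SE 2.31, adjusted p = 2.43e-06). Most members of this list lay in the upper part of both scales, with median percentiles of 92.6 to 93.6 in the WT libraries and 87.2 to 88.0 in the DMSO libraries.

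The receptors with a name in 1 species only were given by CPM without a comparison. Of the Ly49 genes, a receptor family of mouse NK cells of which many but not all members bind MHC class I, Klra8 (Ly49H) and Klra4 (Ly49D) were highest in CPM, which is not scaled by length. Klra8 was at 206, 474 and 268 CPM and Klra4 at 199, 428 and 228 CPM. Klrb1c, which encodes the NK1.1 antigen used for sorting, was at 304, 506 and 321 CPM. In DMSO the human KIR genes, a family of which many members also bind MHC class I, ranged widely. KIR2DL4 was at 93.1, 99.2 and 95.6 CPM, while KIR2DL3, KIR3DL1 and KIR3DL3 lay between 6.51 and 10.2 CPM and KIR2DL1 had at most 0.0587 CPM in any library. NCR3 (NKp30), which has no working mouse counterpart, was at 308, 348 and 312 CPM, and NCR2 (NKp44) at 15.8, 19.3 and 16.5 CPM. FCGR3A (CD16a), the receptor for antibody-coated targets, was at 19.2, 17.6 and 14.7 CPM. Its mouse counterpart Fcgr3 was at 195, 130 and 203 CPM and is also transcribed in macrophages.

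Of 29 cytokine receptor, JAK and feedback genes, 18 ranked higher in WT and 4 in DMSO (median 17.8 points toward WT). The 3 chains of the IL-2 receptor each behaved differently. IL2RB lay near the top in both, as above. IL2RA (CD25), the high-affinity chain that rises on activation, had 9.05, 5.02 and 5.02 CPM in WT and 145, 148 and 161 CPM in DMSO. The difference was 58.7 points (SE 1.57, adjusted p = 2.32e-08). IL2RG, the common gamma chain, had 307, 377 and 293 CPM in WT and 23.1, 24.5 and 28.6 CPM in DMSO, with 49.7 points (SE 1.19, adjusted p = 1.41e-08), and its human exons overlapped a neighbour over 51.3%.

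CISH, a feedback inhibitor that STAT5 induces downstream of IL-2 and IL-15, was 1 of the 4 higher in DMSO, at 15.03, 13.8 and 12.4 CPM in WT and 305, 303 and 304 CPM in DMSO. The difference was 58.2 points (SE 1.12, adjusted p = 7.25e-09). IL2 itself was at 0.539, 1.08 and 0.269 CPM in WT and 33.3, 32.7 and 39.98 CPM in DMSO (37.3 points, SE 1.79, adjusted p = 4.07e-07). NK92MI carries an IL-2 transgene, and reads from it cannot be told apart from those of the native gene in these counts. IFNAR2, a chain of the type I interferon receptor, had 142, 137 and 123 CPM in WT and 0.528, 1.11 and 0.654 CPM in DMSO, with 69.1 points (SE 1.55, adjusted p = 1.11e-08) and 27.7% human exon overlap.

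Among 25 homing receptors and integrins, 13 ranked higher in WT and 4 in DMSO (median 13.0 points toward WT). Besides CX3CR1, described above, ITGA1 (CD49a), the collagen-binding integrin of tissue-resident NK cells, had 9.91, 6.03 and 6.69 CPM in WT and 470.3, 463 and 494 CPM in DMSO, with a difference of 68.4 points (SE 1.39, adjusted p = 8.14e-09) toward DMSO and 13.2% human exon overlap. CCR1, a receptor of inflammatory chemokines, had 17.5, 13.4 and 41.9 CPM in WT and 269, 259.6 and 270.0 CPM in DMSO. It was uneven in WT, highest in replicate 3, the library with the highest neutrophil marker sum, and still lay 47.95 points (SE 5.53, adjusted p = 7.27e-05) lower there than in DMSO.

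**Figure D4:**
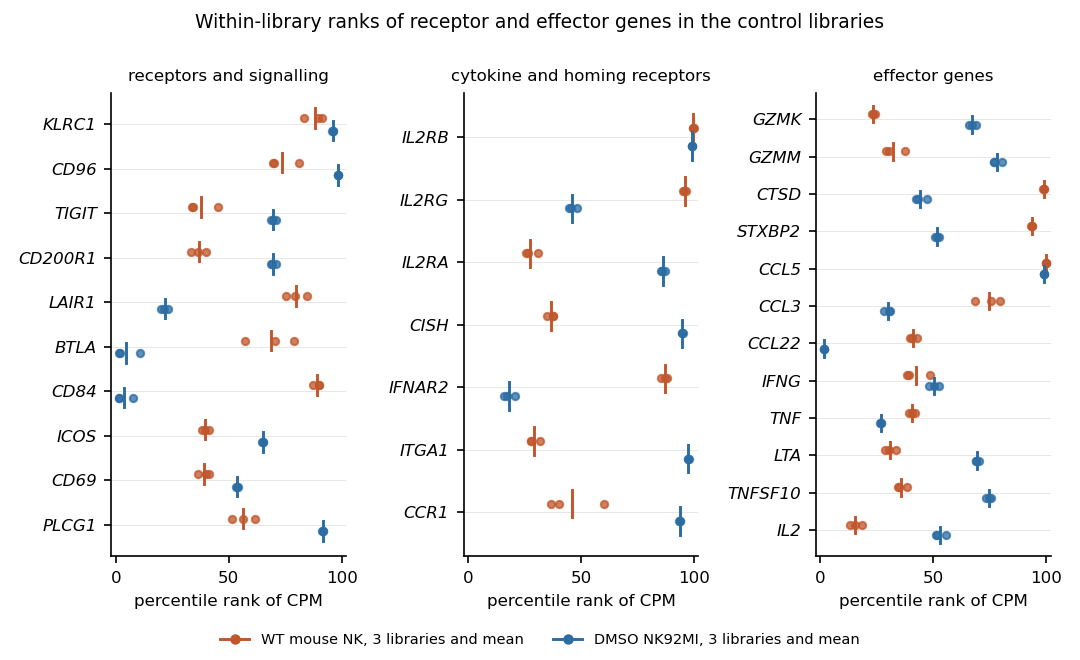
Percentile rank of CPM in each library (points, with the group mean as a bar) for receptor and signalling, cytokine and homing receptor, and effector genes, WT in orange and DMSO in blue, 3 libraries each. KLRC1, IL2RB and CCL5 are to the right in both groups, while CD84 and IFNAR2 fall to the left in DMSO and CISH, IL2RA and ITGA1 fall to the left in WT.

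The lytic granule genes had the median difference nearest to 0 among the 19 lists. Of 23 tested, 5 ranked higher in WT and 5 in DMSO, and the median difference was 0.21 points toward DMSO. The share was 21.7% in each direction, beside 30.4% and 32.9% over all pairs tested. GZMB, the granzyme that activates caspases, was at 289.8, 386 and 313 CPM in WT and 644, 713 and 661 CPM in DMSO, which came to 2.95 points toward DMSO (adjusted p = 0.000125) and was not called. Because GZMB belongs to a family with several close mouse relatives, its mouse reads are uncertain. The mouse granzymes Gzmd, Gzme, Gzmf and Gzmg had no counts in any WT library, which allows at most 0.116 CPM in a library, and Gzmc was at 2.26, 1.31 and 1.53 CPM.

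GZMK and GZMM differed widely. GZMK, a tryptase of early effector cells, had 3.64, 3.71 and 3.28 CPM in WT and 61.1, 69.2 and 64.4 CPM in DMSO, a difference of 43.8 points (SE 1.14, adjusted p = 2.01e-08) toward DMSO beside a human exon overlap of 47.6%. GZMM, which cleaves after methionine, had 8.78, 13.8 and 7.63 CPM in WT and 95.2, 113 and 96.6 CPM in DMSO. The difference was 45.7 points (SE 2.298, adjusted p = 5.2e-07). In both, each DMSO library lay above every WT library, which the rule for named genes required of GZMM. The human-only lytic genes GNLY (granulysin) and GZMH were at 497, 578 and 556 CPM and at 224, 258 and 219 CPM in DMSO.

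Higher in WT were CTSD (cathepsin D), a lysosomal protease, at 826, 726 and 738 CPM in WT and 19.7, 26.7 and 20.9 CPM in DMSO, and STXBP2 (Munc18-2), which readies granules for fusion, at 232, 227 and 241 CPM in WT and 34.9, 33.9 and 32.5 CPM in DMSO. Their differences were 54.8 and 42.01 points, and their human exon overlap was 48.04% and 31.1%. The WT values of CTSD fell in the order of the macrophage and monocyte marker sums, and the part of those cells was not tested. Among the 20 lytic genes with under 10% overlap, 3 ranked higher in WT and 4 in DMSO, beside 27.2% and 35.6% over all such pairs.

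Of 18 cytokines, chemokines and death ligands, 6 ranked higher in WT and 7 in DMSO, with a median of 3.82 points toward DMSO. The shares were 33.3% and 38.9%, beside 30.4% and 32.9% over all pairs tested. Over the 13 with under 10% overlap the counts were 2 and 7, and the median was 15.6 points toward DMSO. CCL5, the chemokine stored by mature NK cells, had 1617, 2486 and 1693 CPM in WT and 650.5, 749 and 651 CPM in DMSO, all at percentile 98.8 or above, and was called higher in WT by edgeR and DESeq2. IFNG was low in both, at 15.8, 25.3 and 16.2 CPM in WT and 31.3, 28.3 and 35.2 CPM in DMSO, with 8.22 points toward DMSO (adjusted p = 0.0231) that were not called. Without WT replicate 2, its highest WT library, the difference was 11.5 points toward DMSO and was called.

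TNF, at 17.7, 15.3 and 18.9 CPM in WT and 3.17, 2.97 and 2.86 CPM in DMSO, ranked higher in WT by 13.8 points (SE 1.08, adjusted p = 6.79e-06). The WT values of TNF ran in the order of the B cell and neutrophil marker sums, and the part of those cells was not tested. LTA (lymphotoxin alpha), the close relative and chromosomal neighbour of TNF, ranked higher in DMSO, at 7.54, 8.19 and 11.04 CPM in WT and 69.8, 72.996 and 69.7 CPM in DMSO, by 38.6 points (SE 1.39, adjusted p = 8.93e-08). TNFSF10 (TRAIL), a death ligand, ranked higher in DMSO as well, at 15.6, 10.97 and 12.2 CPM in WT against 86.9, 82.7 and 91.6 CPM (38.8 points, SE 1.42, adjusted p = 9.33e-08). FASLG is named Fasl in the mouse table and so was outside the pairing by symbol: it was at 45.0, 73.2 and 50.2 CPM in WT and 90.1, 90.9 and 90.4 CPM in DMSO, and through the synonym it was 7.85 points toward DMSO and not called.

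CCL3, XCL1 and CCL22 ranked higher in WT, while CCL4 (MIP-1 beta), named after its values were seen, ranked higher in DMSO, at 35.3, 40.6 and 33.7 against 218, 240.2 and 211 CPM. CCL3 (MIP-1 alpha) had 56.3, 90.4 and 75.3 CPM in WT and 3.76, 5.94 and 5.41 CPM in DMSO and 74.6% human exon overlap, with near-identical human copies beside it, so its 44.7 points are uncertain. XCL1 (lymphotactin), which attracts dendritic cells, had 58.9, 68.7 and 46.1 CPM in WT and 13.1, 14.7 and 14.3 CPM in DMSO, with 30.7 points (SE 2.44, adjusted p = 7.53e-06) and 18.7% mouse exon overlap. The human-only relatives XCL2 and CCL4L2 were at 10.7, 11.3 and 8.80 CPM and at 27.5, 29.0 and 26.6 CPM in DMSO. The part of reads shared with these relatives in the human XCL1 and CCL4 values was not tested. CCL22, a chemokine of myeloid cells and activated lymphocytes, had 19.9, 15.9 and 17.6 CPM in WT and no counts in any DMSO library, which allows at most 0.178 CPM in a library (39.4 points, SE 1.14, adjusted p = 3.19e-08). The WT values of CCL22 ran in the order of the macrophage and monocyte marker sums, and the part of those cells was not tested.

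Metabolic genes separated by pathway. Over 215 tested, 57 ranked higher in WT and 79 in DMSO, beside 30.4% and 32.9% over all pairs, and the lists ran from a median of 9.52 points toward WT for pentose phosphate and redox genes to 18.2 points toward DMSO for serine, one-carbon and nucleotide synthesis. With ranks over all listed genes the metabolic balance turned, to 57 higher in WT and 47 in DMSO. Cell cycle genes, kept as context for the growth state, ranked higher in DMSO in 27 of 31 and in WT in 1, with a median of 31.4 points toward DMSO.

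Of 22 glycolysis and lactate transport genes, 5 ranked higher in each group, and the median was 0.38 points toward DMSO. The share was 22.7% in each direction, beside 30.4% and 32.9% over all pairs tested. HK2, the inducible hexokinase, had 30.3, 24.95 and 32.6 CPM in WT and 122, 119 and 110.3 CPM in DMSO. The difference was 29.5 points (SE 1.62, adjusted p = 8.56e-07). PGAM1, the phosphoglycerate mutase, stood at 42.2, 41.4 and 42.9 CPM in WT and 209, 209 and 216 CPM in DMSO (30.5 points, SE 0.721, adjusted p = 1.36e-08). SLC16A1 (MCT1), a lactate and pyruvate carrier, stood at 13.8, 6.95 and 12.1 and 129, 116 and 126 CPM (48.9 points, SE 1.95, adjusted p = 1.48e-07), while its relative SLC16A3 (MCT4), the lactate exporter of glycolytic cells, went the other way, at 27.9, 28.9 and 38.6 and 1.11, 0.757 and 1.07 CPM (33.6 points, SE 2.11, adjusted p = 1.85e-06).

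PKM and LDHA, pyruvate kinase and the muscle-type lactate dehydrogenase, were near the top in both. PKM had 666, 692 and 800.2 CPM in WT and 3555, 3703 and 3533 CPM in DMSO, at percentiles 98.7, 98.6 and 99.01 in WT and 99.9, 99.9 and 99.9 in DMSO. LDHA had 391, 337 and 362 CPM in WT and 1326, 1401 and 1359 CPM in DMSO, a difference of 3.097 points toward DMSO, short of the minimum. Both PKM and LDHA were called higher in DMSO by edgeR and DESeq2. LDHB, the heart-type subunit, was low in both, at 8.999, 5.18 and 4.51 CPM in WT and 1.17, 1.22 and 1.96 CPM in DMSO, and had 33.4% human exon overlap. It was called higher in WT by the count models and per kilobase (17.7 points). SLC2A1 (GLUT1), the basal glucose transporter, had 43.97, 65.4 and 60.6 CPM in WT and 97.3, 106 and 99.1 CPM in DMSO, 9.82 points toward DMSO (adjusted p = 0.00791), just under the minimum, and it was called, at 10.01 to 11.99 points, without WT replicate 2, WT replicate 3, or DMSO columns 1 or 3. ALDOA, the aldolase of muscle and most blood cells, was at 578, 589.7 and 601 CPM in WT and 4.17, 2.74 and 2.97 CPM in DMSO, with 54.2% human exon overlap beside its 71.2 points.

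In pyruvate oxidation and the citrate cycle, 6 of 24 genes ranked higher in WT and 7 in DMSO. CS (citrate synthase), at 232, 212 and 217 CPM in WT and 194, 192 and 198 CPM in DMSO, differed by 2.902 points toward WT and was not called. IDH2, the NADP-dependent mitochondrial isocitrate dehydrogenase, was higher in DMSO, at 57.5, 38.9 and 48.1 against 239, 271 and 240.1 CPM (28.9 points, SE 2.31, adjusted p = 7.83e-06), as was DLD, the E3 subunit shared by the dehydrogenase complexes, at 47.2, 37.9 and 42.5 against 167, 165 and 165 CPM (26.8 points, SE 1.36, adjusted p = 5.37e-07). IDH3G, a subunit of the NAD-dependent isocitrate dehydrogenase, was higher in WT, at 157, 142 and 149 against 36.9, 39.4 and 37.7 CPM (34.4 points, SE 0.958, adjusted p = 2.68e-08). SDHA, the flavoprotein of succinate dehydrogenase, was at 175, 172 and 175 against 7.099, 6.6995 and 4.46 CPM, with 21.7% human exon overlap beside its 59.6 points.

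The counts of respiratory chain and ATP synthase subunits moved with exon overlap. Of 55 tested, 21 ranked higher in WT and 13 in DMSO (median 6.93 points toward WT), but of the 28 with under 10% exon overlap in both species the counts were 5 and 7. Over all pairs with so little overlap the shares were 27.2% and 35.6%. In DMSO 11 of 55 were under 10 CPM, and all 11 had at least 10% human exon overlap, as did 22 of the 55. The part of overlap in these values was not tested. In WT 2 were under 10 CPM, NDUFA5 and NDUFB2, neither with 10% mouse overlap. COX6A1 and COX8A, cytochrome oxidase subunits, were among the 11, at 283, 275 and 264 against 4.87, 5.01 and 5.53 CPM and 305, 314 and 271 against 7.57, 7.86 and 11.01 CPM, with 13.1% and 35.4% overlap. COX4I1, another subunit of that enzyme with no human overlap, was at 233, 230.1 and 224 CPM in WT and 174, 194 and 178 CPM in DMSO and differed by 4.34 points.

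The complex I subunits NDUFA5 and NDUFB6 ranked higher in DMSO. NDUFA5 had 8.999, 6.45 and 6.69 CPM in WT and 116, 106 and 117 CPM in DMSO, a difference of 51.4 points (SE 1.24, adjusted p = 1.49e-08) that fell to 3.95 points per kilobase and was then not called. NDUFB6 was at 13.6, 10.97 and 10.98 against 51.5, 56.7 and 60.2 CPM (29.2 points, SE 1.31, adjusted p = 2.77e-07), with 39% mouse exon overlap. A further 15 ATP synthase subunits, paired only through human synonyms, had 9 higher in WT, 0 higher in DMSO and 6 not called by the same limma rule, with a median of 23.8 points toward WT. Over all pairs with synonyms added, 30.4% were called higher in WT and 32.9% in DMSO, 63.4% in either direction. The exon overlap of these 15 subunits was not measured, and its part in their counts was not tested. In DMSO they ran from ATP5ME at 0.352 to 0.583 CPM to ATP5F1B at 622 to 661 CPM.

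**Figure D5:**
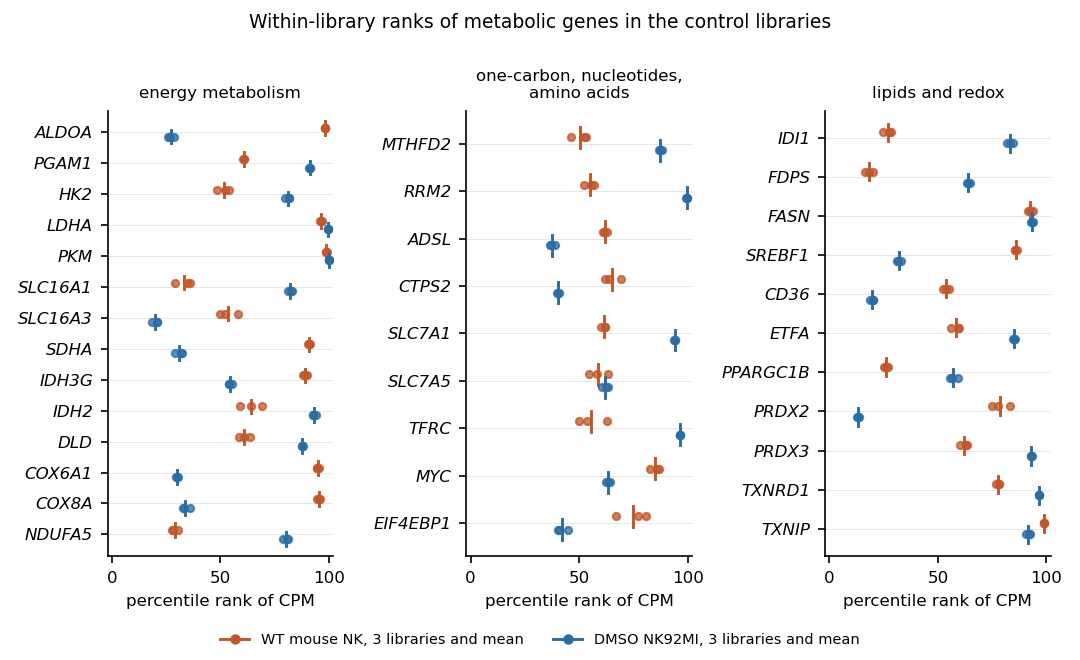
Percentile rank of CPM in each library (points, with the group mean as a bar) for genes of energy metabolism, of one-carbon, nucleotide and amino acid metabolism, and of lipid and redox metabolism, WT in orange and DMSO in blue, 3 libraries each. PKM and LDHA are at the right edge in both groups, RRM2 and IDI1 are farther right in DMSO, and ALDOA, SDHA, COX6A1, COX8A and PRDX2, which have human exon overlap of at least 10%, are farther right in WT.

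Genes that supply nucleotides leaned toward the line. Of 26 serine, one-carbon and nucleotide synthesis genes, 18 ranked higher in DMSO and 5 in WT, and of the 18 with under 10% overlap 14 and 3. RRM2, the regulated subunit of ribonucleotide reductase that is made in S phase, had 34.8, 35.8 and 30.4 CPM in WT and 1031, 980.5 and 1019 CPM in DMSO. The difference was 44.6 points (SE 1.19, adjusted p = 2.24e-08). MTHFD2, the mitochondrial folate enzyme of proliferating cells, had 31.6, 22.7 and 30.02 CPM in WT and 157, 159 and 168 CPM in DMSO, with 36.9 points (SE 1.85, adjusted p = 5.09e-07) and 14.2% human exon overlap.

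Higher in WT in this list were ADSL, a purine synthesis enzyme, at 45.8, 42.3 and 42.97 against 15.3, 12.8 and 11.8 CPM (24.2 points, SE 1.14, adjusted p = 3.72e-07, with 11.1% human exon overlap), and CTPS2, a CTP synthase, at 44.4, 57.8 and 47.4 against 17.02, 16.8 and 18.1 CPM (24.6 points, SE 1.91, adjusted p = 6.48e-06). CTPS1, the isoform that proliferating lymphocytes use, was paired only through its mouse synonym and lay 54.2 points toward DMSO. Phgdh, the first enzyme of serine synthesis, was at 60.5, 56.8 and 50.8 CPM in WT, and its human counterpart was not analysed here.

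Amino acid uptake, glutamine and mTORC1 genes had 10 of 25 higher in DMSO and 5 in WT (median 8.50 points toward DMSO). With ranks over all listed genes the balance turned, to 3 higher in DMSO and 5 in WT. SLC7A1, the cationic amino acid carrier, had 44.2, 43.7 and 41.4 CPM in WT and 269, 279.8 and 278 CPM in DMSO, with 32.8 points (SE 0.822, adjusted p = 1.72e-08), and TFRC (CD71), the transferrin receptor that brings iron to dividing cells, had 45.8, 26.8 and 32.1 CPM in WT and 393, 373 and 376 CPM in DMSO. The difference was 40.9 points (SE 2.92, adjusted p = 3.98e-06). SLC7A5 (LAT1), the leucine carrier, did not pass the test, at 46.3, 32.4 and 38.6 CPM in WT and 53.5, 55.1 and 49.2 CPM in DMSO, a difference of 3.41 points (SE 2.19, adjusted p = 0.173).

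MYC, a driver of growth and of many genes in these lists, ranked higher in WT, at 123, 104 and 132 CPM in WT and 54.9, 56.7 and 52.6 CPM in DMSO, by 21.9 points (SE 1.29, adjusted p = 1.25e-06). EIF4EBP1, a translation repressor that mTORC1 inactivates, was also higher in WT, at 79.96, 52.1 and 96.5 against 18.01, 23.9 and 17.01 CPM (32.96 points, SE 3.47, adjusted p = 4.19e-05), but by 5.65 points per kilobase, where it was not called. SESN2, a stress-induced mTORC1 inhibitor, was at 60.3, 44.1 and 62.7 against 19.5, 17.9 and 15.3 CPM (27.4 points, SE 2.36, adjusted p = 1.23e-05). The WT values of MYC, EIF4EBP1 and SESN2 each ran in the order of the B cell and neutrophil marker sums. The part of those cells in these differences was not tested.

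Sterol and fatty acid synthesis genes ranked higher in DMSO in 15 of 28 and in WT in 2 (median 10.5 points toward DMSO), or 10 and 1 of the 21 with under 10% overlap. IDI1 and FDPS, which make isoprenoid precursors of cholesterol, had 7.36, 4.09 and 6.47 against 132, 121 and 141 CPM and 0.754, 1.58 and 1.21 against 55.2, 55.9 and 58.4 CPM, differences of 56.4 and 45.7 points, with 14.97% and 18.6% human exon overlap. The 2 genes higher in WT were regulators: SREBF1, the factor that activates fatty acid synthesis genes, at 120.3, 132 and 122 CPM in WT and 6.102, 7.75 and 6.48 CPM in DMSO, with 54.02 points (SE 1.06, adjusted p = 7.57e-09), and SCAP, the escort of SREBP proteins, at 123, 128 and 109.6 against 77.6, 79.2 and 70.1 CPM (14.04 points, SE 1.17, adjusted p = 9.81e-06, and 6.51 points per kilobase, not called). FASN, the fatty acid synthase, did not pass the test, at 178, 234 and 201 CPM in WT and 261, 261 and 239.8 CPM in DMSO. The difference was 0.86 points (SE 0.61, adjusted p = 0.212).

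Of 16 fatty acid oxidation genes 8 ranked higher in DMSO and 4 in WT (median 7.72 points toward DMSO). This balance turned with the scale, to 5 in DMSO and 6 in WT per kilobase and to 3 and 4 with ranks over all listed genes. PPARGC1B, a coactivator of mitochondrial genes, had 5.52, 4.21 and 6.07 CPM in WT and 46.1, 40.1 and 41.6 CPM in DMSO. The difference was 31.1 points (SE 1.204, adjusted p = 1.27e-07). ETFA, which passes electrons from fatty acid oxidation to the respiratory chain, had 26.7 points toward DMSO, at 40.8, 38.9 and 35.5 against 144, 143 and 139.9 CPM, but 6.91 points toward WT per kilobase, so its direction depends on the scale. CD36, a fatty acid receptor also found on macrophages and platelets, was at 34.6, 30.8 and 30.5 against 0.997, 0.816 and 1.01 CPM, 34.2 points higher in WT, and ACADS, the short-chain acyl-CoA dehydrogenase, at 40.95, 34.3 and 37.8 against 4.11, 6.35 and 3.63 CPM, 28.4 points higher. Cpt1a, the carrier that admits fatty acids to mitochondria, was at 181, 194 and 202 CPM in WT, and its human counterpart was not analysed here.

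Pentose phosphate and redox genes ran toward WT, with 9 of 19 higher in WT and 3 in DMSO (median 9.52 points toward WT), or 5 and 3 of the 13 with under 10% overlap. GPX1, which reduces peroxides, had 732, 471 and 566 CPM in WT and 9.09, 12.6 and 11.2 CPM in DMSO, a difference of 62.4 points with 39.9% human exon overlap. PRDX2, a peroxiredoxin abundant in red cells, had 107, 73.5 and 82.7 CPM in WT and 0.352, 0.291 and 0.357 CPM in DMSO, a difference of 65.5 points with 12.1% human exon overlap. In WT replicate 2, 15 of these 19 genes were lowest, beside 36.97% of all pairs, which was also the library with the lowest macrophage marker sum, and the part of other cells was not tested.

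TXNIP, an inhibitor of thioredoxin and of glucose uptake, was high in both, at 714, 823 and 741 CPM in WT and 202, 223 and 229.6 CPM in DMSO, with 7.17 points toward WT (adjusted p = 1.55e-06), short of the minimum, and was called higher in WT by edgeR and DESeq2. TXNRD1, the thioredoxin reductase, and PRDX3, the mitochondrial peroxiredoxin, ranked higher in DMSO. TXNRD1 was at 83.2, 84.97 and 80.4 against 392, 405 and 382 CPM (18.9 points, SE 0.49, adjusted p = 1.99e-08), and PRDX3 at 46.7, 40.4 and 45.9 against 249, 250.4 and 248 CPM (30.9 points, SE 1.03, adjusted p = 6.08e-08, or 9.66 points and not called per kilobase).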

How the data were processed

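Per the labels and the study's methods, polyadenylated RNA was sequenced, reads were trimmed with fastp 0.23.4 and aligned with STAR 2.7.11b (2 mismatches allowed) to GRCm38 or GRCh38, and the authors deposited raw gene counts from HTSeq 2.0.3 in 1 table per species. The annotation release and strand setting were not given in the sources used here. Of the 12 libraries, the 3 WT and 3 DMSO libraries entered the comparison. Human columns are named CON without the replicate numbers of the labels and are called DMSO columns 1 to 3.

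Counts of repeated symbols were summed (41 mouse and 15 human symbols), 25 mouse symbols that read as dates were not paired, and each library was converted to CPM over all its genes. Percentiles among the 11216 pairs were tested in limma 3.58.1 (R 4.3.3) with an unweighted fit of 2 groups, a mean CPM of at least 1, at least 10 points and an adjusted p under 0.05. A rank test, not a count model, led because the groups are different species. Count models (edgeR 4.0.16 and DESeq2 1.42.0) served as alternatives, with a 2-fold minimum. Counts were also simulated with WT means in both groups. Among genes whose true difference was at least 12 points, 94.4% of 54 changed by 2-fold and 100% of 70 changed by 4-fold were recovered. Changed genes with a smaller true difference were not scored. Of 9257 genes tested, those left unchanged gave 0 false calls. The simulation used the same dispersion for all genes and held no difference of species, annotation, length or exon overlap, so it cannot speak to calls that come from these. No library pair agreed within sampling noise (chi-square per degree of freedom 2.95 to 71.9).

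Exon overlap, positions and coding sequences came from GENCODE 44 (human) and M21 (mouse), which held 97.7% and 97.1% of the tables' symbols. Genes with 51 fixed names, plus in each list the 2 called genes with the largest difference in each direction whose groups do not overlap, were named (110 in all, 107 paired). Some of these genes are not reported here. The members and lists were chosen with earlier results of these data known. Alternatives were normal scores, log2 CPM, other filters and minimums, ranks over all listed genes or per kilobase, libraries thinned to 16808809 counts, the count models, leaving out each library, and the knockout against BIX-01294 libraries in place of the controls. Added after seeing the data were pairs through human synonyms and pairs with under 10% exon overlap.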

Additional observations from a re-analysis of the deposited data

How the results depend on the processing

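Of the totals over all pairs (2947 higher in WT, 3195 in DMSO), a minimum of 20 points left 1815 and 1826, ranks over all listed genes moved the DMSO total to 1853, and pairs with little exon overlap, an alternative chosen after seeing the data, held 1869 higher in WT. With 20 points, receptor genes higher in DMSO came to 11, effector genes higher in WT to 7 and metabolic genes higher in DMSO to 45. With no minimum difference, identity genes higher in DMSO came to 22, receptor genes to 26 and effector genes to 19, and metabolic genes higher in WT to 90. Ranks over all listed genes left 47 metabolic genes higher in DMSO against 57 in WT, which turned their balance. Among pairs with little exon overlap 5 effector and 29 metabolic genes were higher in WT, and these counts fall in part because fewer genes were tested. The mouse rows at 0 bear on the changes with ranks over all listed genes. Their part was not tested, nor was the cause of the other changes. Leaving out each library in turn gave 2921 to 2971 genes higher in WT and 3133 to 3230 in DMSO. Over all alternatives, named genes kept direction and side of the threshold in 2246 values, passed it anew in 57, lost it in 16 and reversed in 3, all with ranks per kilobase: EHMT1 at 13.98 points, ETFA at 6.91 and TIGIT at 5.88, each toward WT. CD69 was no longer called by edgeR or DESeq2 or with ranks over all listed genes, nor was SCAP by the count models. The edgeR and DESeq2 fits added calls for CCL5, EOMES, IL2RB, LDHB and TXNIP in WT (edgeR with TMM, log2 1.74, 1.59, 1.23, 2.34 and 2.04) and for LDHA and PKM in DMSO (log2 -1.67 and -2.08). Within lists, ranks over all listed genes took the genes higher in DMSO from 10 to 3 for amino acid uptake and mTORC1 (5 in WT), from 8 to 3 for fatty acid oxidation (4 in WT), from 7 to 5 for the citrate cycle (6 in WT) and from 13 to 7 for respiratory subunits. Per kilobase, fatty acid oxidation had 6 in WT and 5 in DMSO. The balance also turned for cytokines in edgeR and DESeq2 (8 in WT, 6 in DMSO) and for transcription factors on log2 CPM (11 and 12). Leaving out 1 library added calls for IFNG and SLC2A1 only among named genes, and the other called values stayed between 0.870 and 1.15 times the value with all libraries. No paired analysis was possible because the human columns carry no replicate numbers and the groups are different species. Depth limited transcripts near 0.178 CPM or below, and exon overlap, cell purity and gene length within a species limit the ranks.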
